A study of Saccharomyces cerevisiae with 12 samples.

Results

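The 10 genes described here are the 9 cyclin genes of budding yeast that partner the cell cycle kinase Cdc28 (CLN1, CLN2, CLN3 and CLB1 to CLB6) and SIC1, which encodes an inhibitor of the B-type cyclin kinases. They were chosen by name from the 5798 ORFs among the 6198 features of the 3′ READS profiles, and all 10 were found. 3′ READS sequences the 3′ ends of polyadenylated RNA, so each read marks an RNA 3′ end and levels of genes of unequal length can be set side by side. PCR copies were not told apart from molecules, so reads do not count molecules exactly. The profiles come from Saccharomyces cerevisiae strains rpb4Δ (RPB4::HIS3) and ubp8Δ (UBP8::HIS3). Rpb4 is a subunit of RNA polymerase II, and Ubp8 removes ubiquitin from histone H2B within the SAGA complex. Both strains also carry RPB3 with a 3xFLAG tag and the NAT marker (RPB3::RPB3-3xFLAG NAT), and both were grown at 30 °C in YPD to mid-log phase. No synchronisation is described for these cultures, so cells of all phases were mixed, and fewer cells in a phase cannot be told apart from less RNA per cell. The 2 biological replicates of each strain had been pooled into 1 profile, and no wild-type 3′ READS profile was analysed here. Differences between the strains therefore have no replicate check, carry no test, and cannot be assigned to either deletion. The NET-seq samples of the series were not analysed here.

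Progress through the yeast cell cycle is driven by cyclins that bind Cdc28 in succession. Cln3 acts first in G1 and helps to switch on transcription of CLN1 and CLN2, whose products promote budding and mark Sic1 for destruction. Sic1 holds Clb5 and Clb6, the S phase cyclins, in check until then, and Clb3 and Clb4 and later Clb1 and Clb2 drive spindle formation and mitosis. The RNA of many of these genes rises and falls once per cycle, and yeast genes commonly use many poly(A) sites within one 3′ UTR.

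The windows of all ORFs held 1977159 reads in the pooled rpb4Δ profile and 13034209 in the pooled ubp8Δ profile, and 1 read was worth 0.395 RPM (read counts normalised for library depth) in rpb4Δ and 0.0614 RPM in ubp8Δ. A count of 0 allowed up to 1.19 RPM in rpb4Δ and 0.184 RPM in ubp8Δ (3 reads). The deleted genes followed the labels: the RPB4 ORF had 0 reads in rpb4Δ, against 244 in ubp8Δ, and the UBP8 ORF had 12 reads in rpb4Δ, against 0 in ubp8Δ. Of the 6 a-cell genes examined, MFA1, MFA2 and STE2 had window signals of 136 to 397 RPM in rpb4Δ and 169 to 967 RPM in ubp8Δ, and BAR1, AGA2 and STE6 had 1.59 to 17.02 RPM in rpb4Δ and 0.67 to 13.5 RPM in ubp8Δ. The 4 α-cell genes had 0 to 1.98 RPM in rpb4Δ and 0.55 to 8.11 RPM in ubp8Δ, so the low a-cell genes overlapped the α-cell genes in level.

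For each gene, the profiles give the signal at every nucleotide from 1 to 400 nt after the stop codon (the window) and the sum inside the ORF. A nucleotide with any signal counts as a poly(A) site, and because terminal As are trimmed, a site is placed at the last other base. The sequences around the sites on which the comparison of the strains rests are shown here from the RNA strand, with the site in capitals, 20 bases before it and 9 bases after it. They were read from the R64 assembly (sacCer3), in which all 10 genes had the start and end given in the profiles. CLN1 lies on the plus strand (site at 95 nt, chrXIII:664359-664388) and CLN2 on the minus strand (site at 186 nt, chrXVI:64782-64811).
CLN1 95 nt: gacattcatacttgacatttTaataccaga
CLN2 186 nt: aaatcaatgaaacagccaacTaaattctgt

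CLB5 lies on the minus strand, and its sites at 38 nt (chrXVI:773828-773857) and 40 nt (chrXVI:773826-773855) are shown because each was the highest in one of the strains. CLB3 lies on the plus strand, and its sites at 129 nt (chrIV:178165-178194) and 220 nt (chrIV:178256-178285) are shown for the same reason.
CLB5 38 nt: tcatgaattcgcatactcttTacattttct
CLB5 40 nt: atgaattcgcatactctttaCattttcttt
CLB3 129 nt: ttaaaacatactaatctccgTacttttttt
CLB3 220 nt: attgaagctaaaatcaaggtTaacaaaaca

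CLB2, CLB1 and SIC1 lie on the plus strand. CLB2 is shown at 74 nt (chrXVI:773182-773211), 90 nt (chrXVI:773198-773227) and 274 nt (chrXVI:773382-773411), and CLB1 at 83 nt (chrVII:705114-705143) and 154 nt (chrVII:705185-705214). SIC1 is shown at 126 nt (chrXII:287780-287809), its highest site in ubp8Δ, and at 154 nt (chrXII:287808-287837), its highest site in rpb4Δ.
CLB2 74 nt: taaaatgtatggctgcttttTaatcatttc
CLB2 90 nt: tttttaatcatttcttttcaCatttccatt
CLB2 274 nt: ttaatttcagatttgtaccaTaagttttat
CLB1 83 nt: aaaatcaggcattcattattCatataacgg
CLB1 154 nt: tgtaataattaattcatttaTaaatttttt
SIC1 126 nt: atatacaggatattctatatTacaacatta
SIC1 154 nt: taacaggatttttaacttttCcttaccgta

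Of the 13 sites shown, the SIC1 site at 154 nt is not followed by an A and the other 12 are. Over all sites of the 10 genes, 91.7% of window reads in rpb4Δ and 90.5% in ubp8Δ lay before a genomic A, against 84.0% in rpb4Δ and 83.4% in ubp8Δ over the windows of all ORFs. At such sites the cleaved nucleotide can lie further downstream than the position given.

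The levels of the 10 genes spanned a wide range in both strains, with the G1 cyclin CLN1 far above the rest. SIC1 and the mitotic cyclin CLB1 stood out by a lower window signal in rpb4Δ than in ubp8Δ, at 3.47-fold and 3.29-fold. CLN1 and CLN2 were close in level in the strains, and no gene of the 10 was called higher in rpb4Δ. A gene was called when its window signal differed 2-fold or more and averaged at least 8 RPM over the strains, which 7 of the 10 genes did. Of these 7, 2 were called lower in rpb4Δ and 0 higher, where 15.1% of all 4350 ORFs tested were called lower and 16.9% higher. CLB1, with 6.32 RPM in rpb4Δ (16 reads), passed the minimum only through ubp8Δ, the strain where it was high. The minimum thus favoured its call. Of the same 7 genes, 6 were lower in rpb4Δ by any amount, against 46.7% of ORFs. The median ratio was 0.881 over the 7 genes and 1.05 over all ORFs tested.

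CLN3 (YAL040C, chrI:65778-67520) encodes the cyclin that starts the G1 program. It had 1.19 RPM in its window in rpb4Δ (3 reads), against 6.81 RPM in ubp8Δ (111 reads), a ratio of 0.175 with a 95% counting interval of 0.0353 to 0.522. The 3 reads in rpb4Δ leave the size of this ratio poorly known, and the gene was below the minimum for a call. Intervals of this kind throughout cover counting error only, since PCR copies were not told apart from molecules.

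CLN1 (YMR199W, chrXIII:662644-664284) and CLN2 (YPL256C, chrXVI:64977-66614) encode paired G1 cyclins that act at Start. CLN1 had 357 RPM in rpb4Δ (903 reads) and 394 RPM in ubp8Δ (6409 reads), a ratio of 0.907 (0.845 to 0.972). CLN2 had 54.6 RPM in rpb4Δ (138 reads) and 57.7 RPM in ubp8Δ (940 reads), a ratio of 0.945 (0.784 to 1.13). CLN1 therefore gave 6.54 window reads for each read of CLN2 in rpb4Δ (5.46 to 7.89) and 6.82 in ubp8Δ (6.37 to 7.31), and these intervals overlap. CLN1 held 71.9% of the summed window signal of the 10 genes in rpb4Δ and 64.3% in ubp8Δ. Only CLN1 and CLN2 were above the median ORF (30.8 RPM) in rpb4Δ, while SIC1 was also above the median (29.1 RPM) in ubp8Δ.

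CLB5 (YPR120C, chrXVI:773875-775182) encodes the main S phase cyclin. Its window held 18.2 RPM in rpb4Δ (46 reads) and 27.5 RPM in ubp8Δ (447 reads), a ratio of 0.663 (0.478 to 0.898). CLB6 (YGR109C, chrVII:705359-706501), the other S phase cyclin gene, had 0 window reads in both strains, which allows up to 1.19 RPM in rpb4Δ and 0.184 RPM in ubp8Δ. Its ORF had 3 reads at 1 position in rpb4Δ and 0 in ubp8Δ. In the CLB6 window, 249 of the 400 positions were neither an A nor the end of a 17-base sequence repeated in the genome, and could therefore have held a site.

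CLB3 (YDL155W, chrIV:176773-178056) and CLB4 (YLR210W, chrXII:562008-563390) encode B-type cyclins of early mitosis. CLB3 had 27.7 RPM in rpb4Δ (70 reads) and 22.5 RPM in ubp8Δ (366 reads), a ratio of 1.23 (0.939 to 1.59). CLB4 had 1.98 RPM in rpb4Δ (5 reads) and 1.78 RPM in ubp8Δ (29 reads), a ratio of 1.11 (0.335 to 2.90). The pair kept a wide gap in both strains, with 14.0 CLB3 window reads for each CLB4 read in rpb4Δ (5.72 to 44.5) and 12.6 in ubp8Δ (8.64 to 19.1).

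CLB1 (YGR108W, chrVII:703636-705051) and CLB2 (YPR119W, chrXVI:771653-773128) encode the mitotic cyclins. CLB1 had 6.32 RPM in rpb4Δ (16 reads) and 20.8 RPM in ubp8Δ (338 reads), a ratio of 0.304 (0.172 to 0.502). CLB2 had 9.10 RPM in rpb4Δ (23 reads) and 10.3 RPM in ubp8Δ (168 reads), a ratio of 0.881 (0.544 to 1.37). CLB1 gave 0.696 window reads for each CLB2 read in rpb4Δ (0.343 to 1.38) and 2.01 in ubp8Δ (1.67 to 2.44). CLB1 was thus above CLB2 in ubp8Δ, while their order in rpb4Δ was within counting error.

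SIC1 (YLR079W, chrXII:286820-287674) encodes the inhibitor that must be destroyed before S phase. Its window held 20.6 RPM in rpb4Δ (52 reads) and 71.3 RPM in ubp8Δ (1160 reads), a ratio of 0.289 (0.214 to 0.381). It ranked below CLN2 and CLB3 in rpb4Δ and above both in ubp8Δ, where only CLN1 was higher.

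In rpb4Δ the window signals ranked CLN1, CLN2, CLB3, SIC1, CLB5, CLB2, CLB1, CLB4, CLN3 and CLB6. The counting intervals of neighbours overlapped throughout this order except at CLN1 against CLN2 and CLN2 against CLB3. In ubp8Δ the order was CLN1, SIC1, CLN2, CLB5, CLB3, CLB1, CLB2, CLN3, CLB4 and CLB6, and the only neighbours with overlapping intervals were CLB3 and CLB1.

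**Figure D1:**
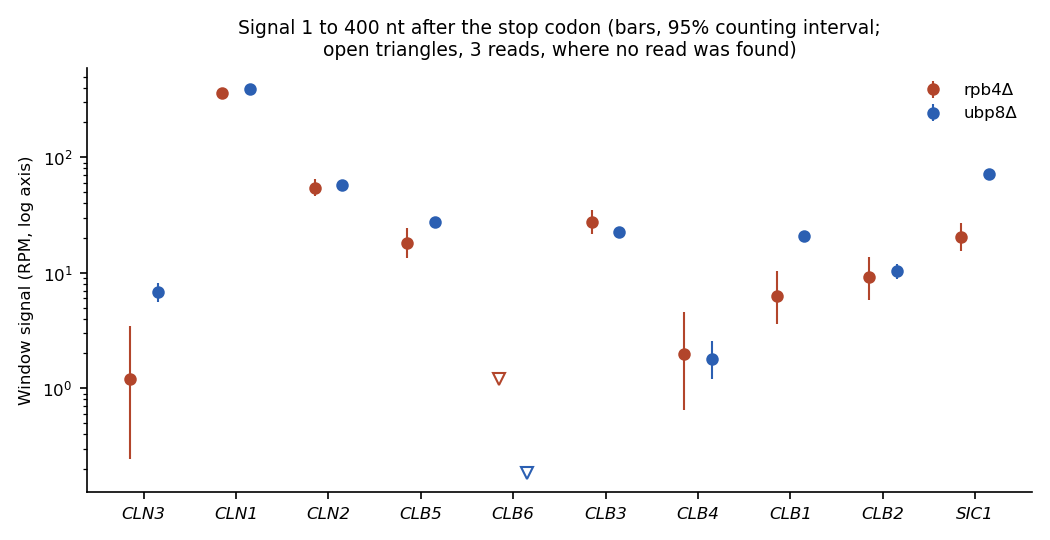
Window signal of the 10 genes in RPM on a log axis, with rpb4Δ in red to the left of ubp8Δ in blue and bars for the exact 95% Poisson interval of the reads. SIC1 was at 20.6 RPM in rpb4Δ and 71.3 RPM in ubp8Δ, and CLN1 was the highest gene in both at 357 and 394 RPM. Open triangles mark the 3-read limit for CLB6, which had no window reads.

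When the reads inside the ORF were added to those of the window, 9 genes passed the minimum, a mean of 8 RPM over the strains. Of these, 3 (CLN3, CLB1 and SIC1) were called lower in rpb4Δ. CLN3 and CLB1 were below 8 RPM in rpb4Δ and passed only through ubp8Δ, where they were high. The minimum thus favoured a call of lower for them. Among the 4894 ORFs tested by this measure, 23.6% were called lower. CLN3 had 3.58 RPM in rpb4Δ (6 reads in the ORF and 3 in the window) and 48.8 RPM in ubp8Δ, a ratio of 0.0734 (0.0332 to 0.139). CLB1 had 7.52 RPM in rpb4Δ (3 reads in the ORF and 16 in the window) and 50.6 RPM in ubp8Δ, a ratio of 0.149 (0.0890 to 0.233). The CLN3 and CLB1 ratios were thus lower than in the window alone, and the SIC1 ratio was about the same (0.285).

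The position of the poly(A) sites was compared as the weighted average, the mean position after the stop codon weighted by signal. The 6 genes with at least 20 window reads in both strains (CLN1, CLN2, CLB5, CLB3, CLB2 and SIC1) all had a weighted average further downstream in rpb4Δ than in ubp8Δ, where 46.7% of the 4248 ORFs tested did. Their differences were small for CLN1 and CLB5 and between 14.9 and 22.8 nt for the other 4. One of the 6, CLB3, was called, by 20 nt or more, against 9.02% of ORFs called downstream, and 0 were called upstream, against 10.8% of ORFs. The median difference was 16.0 nt over the 6 genes and -0.58 nt over all ORFs tested. With only sites of at least 5% of the signal, 5 of the 6 were downstream and CLN1 was upstream, at -2.29 nt, and by the highest site or the weighted median 4 were downstream and CLN1 and CLN2 did not differ.

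CLN1 had its weighted average at 99.96 nt in rpb4Δ and 96.0 nt in ubp8Δ, a difference of 3.96 ± 0.81 nt (counting SE). Its highest site was at 95 nt in both strains, with 29.6% of window reads in rpb4Δ (Wilson 95% interval 26.7 to 32.6%) and 29.7% in ubp8Δ (28.6 to 30.8%). The next most used site, at 122 nt, held 18.4% in rpb4Δ (16.0 to 21.0%) and 14.98% in ubp8Δ (14.1 to 15.9%). The CLN1 window thus kept the same leading site, with all window reads but 1 in rpb4Δ between 46 and 148 nt.

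CLN2 had its weighted average at 187 nt in rpb4Δ and 169 nt in ubp8Δ, a difference of 18.6 ± 3.6 nt. The highest site was again shared, at 186 nt, and the sites from 182 to 203 nt held 68.8% of reads in rpb4Δ (60.7 to 76.0%) and 66.5% in ubp8Δ (63.4 to 69.4%). The difference arose on both sides of these sites. Sites from 223 to 246 nt held 19.6% in rpb4Δ (13.8 to 27.0%) and 8.09% in ubp8Δ (6.51 to 10.003%), and sites from 118 to 165 nt held 0.725% in rpb4Δ (1 read) and 8.09% in ubp8Δ (76 reads). Those from 14 to 19 nt held 0 of 138 reads in rpb4Δ, which allows up to 2.17%, and 6.06% in ubp8Δ (57 reads). CLN1 and CLN2 therefore differed from each other in where their RNAs ended as well as in level.

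CLB5 had the shortest 3′ UTR of the 6 genes, with a weighted average of 42.3 nt in rpb4Δ and 41.8 nt in ubp8Δ, a difference of 0.56 ± 4.07 nt. Sites from 29 to 40 nt held 97.8% of reads in rpb4Δ and 96.9% in ubp8Δ. Within this cluster the leading nucleotide differed. The site at 40 nt held 56.5% in rpb4Δ (42.2 to 69.8%) and 13.4% in ubp8Δ (10.6 to 16.9%), while the site at 38 nt held 26.1% in rpb4Δ (15.6 to 40.3%) and 51.7% in ubp8Δ (47.1 to 56.3%). Those sites are the neighbouring bases T and C in the sequences above, separated by a single A.

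CLB3 had the largest difference in weighted average of the 6 genes, 22.8 ± 5.0 nt, with 167 nt in rpb4Δ and 144 nt in ubp8Δ. By the weighted median position it was 9.0 nt, which ends the call. Its highest site was at 220 nt in rpb4Δ and at 129 nt in ubp8Δ. The site at 220 nt held 31.4% of reads in rpb4Δ (22 of 70 reads, 21.8 to 43.0%) and 5.74% in ubp8Δ (21 of 366 reads, 3.78 to 8.61%). The site at 129 nt held 12.9% in rpb4Δ (6.91 to 22.7%) and 46.7% in ubp8Δ (41.7 to 51.8%). In RPM, the downstream site had 8.70 in rpb4Δ and 1.29 in ubp8Δ and the upstream site 3.56 in rpb4Δ and 10.5 in ubp8Δ, while the summed window differed by no more than counting error. The nearby site at 138 nt was used in both strains, with 25.7% in rpb4Δ and 15.6% in ubp8Δ. MSH5 lies in tandem 278 nt downstream, and none of the reads in the CLB3 window of either strain fell in its coding region.

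CLB2 had its weighted average at 187 nt in rpb4Δ and 170 nt in ubp8Δ, a difference of 17.1 ± 21.3 nt that was smaller than its counting error. Most CLB2 window reads lay from 74 to 96 nt or at 274 nt in both strains. A further site at 127 nt held 11.3% in ubp8Δ (19 reads) and 0 of 23 reads in rpb4Δ, which allows up to 13.0%, so a difference there was not detectable at this depth. The sites from 74 to 96 nt held 47.8% of 23 reads in rpb4Δ (29.2 to 67.0%) and 43.5% of 168 reads in ubp8Δ (36.2 to 51.0%), and the site at 274 nt held 34.8% in rpb4Δ (18.8 to 55.1%) and 36.9% in ubp8Δ (30.0 to 44.4%). Within the upstream cluster, the leading base was 90 nt in rpb4Δ with 8 reads, where ubp8Δ had 0 of 168 reads, which allows up to 1.79%. It was 74 nt in ubp8Δ with 68 reads, where rpb4Δ had 2 reads. The sites at 90 and 274 nt tied for the highest in rpb4Δ.

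SIC1 had its weighted average at 131 nt in rpb4Δ and 116 nt in ubp8Δ, a difference of 14.9 ± 3.8 nt. The site at 154 nt held 46.2% of reads in rpb4Δ (24 of 52 reads, 33.3 to 59.5%) and 18.4% in ubp8Δ (213 of 1160 reads, 16.2 to 20.7%), where the site at 126 nt was the highest by a single read (214 reads). The site at 126 nt held 23.1% in rpb4Δ (13.7 to 36.1%). The lower level of SIC1 in rpb4Δ was thus uneven over its sites. At 85 nt the signal was 0.791 RPM in rpb4Δ and 12.6 RPM in ubp8Δ, whereas at 154 nt it was 9.49 RPM in rpb4Δ and 13.1 RPM in ubp8Δ. The coding region of the tandem neighbour EMP46, 242 nt downstream, held 0 reads of the window in rpb4Δ and 1 in ubp8Δ.

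**Figure D2:**
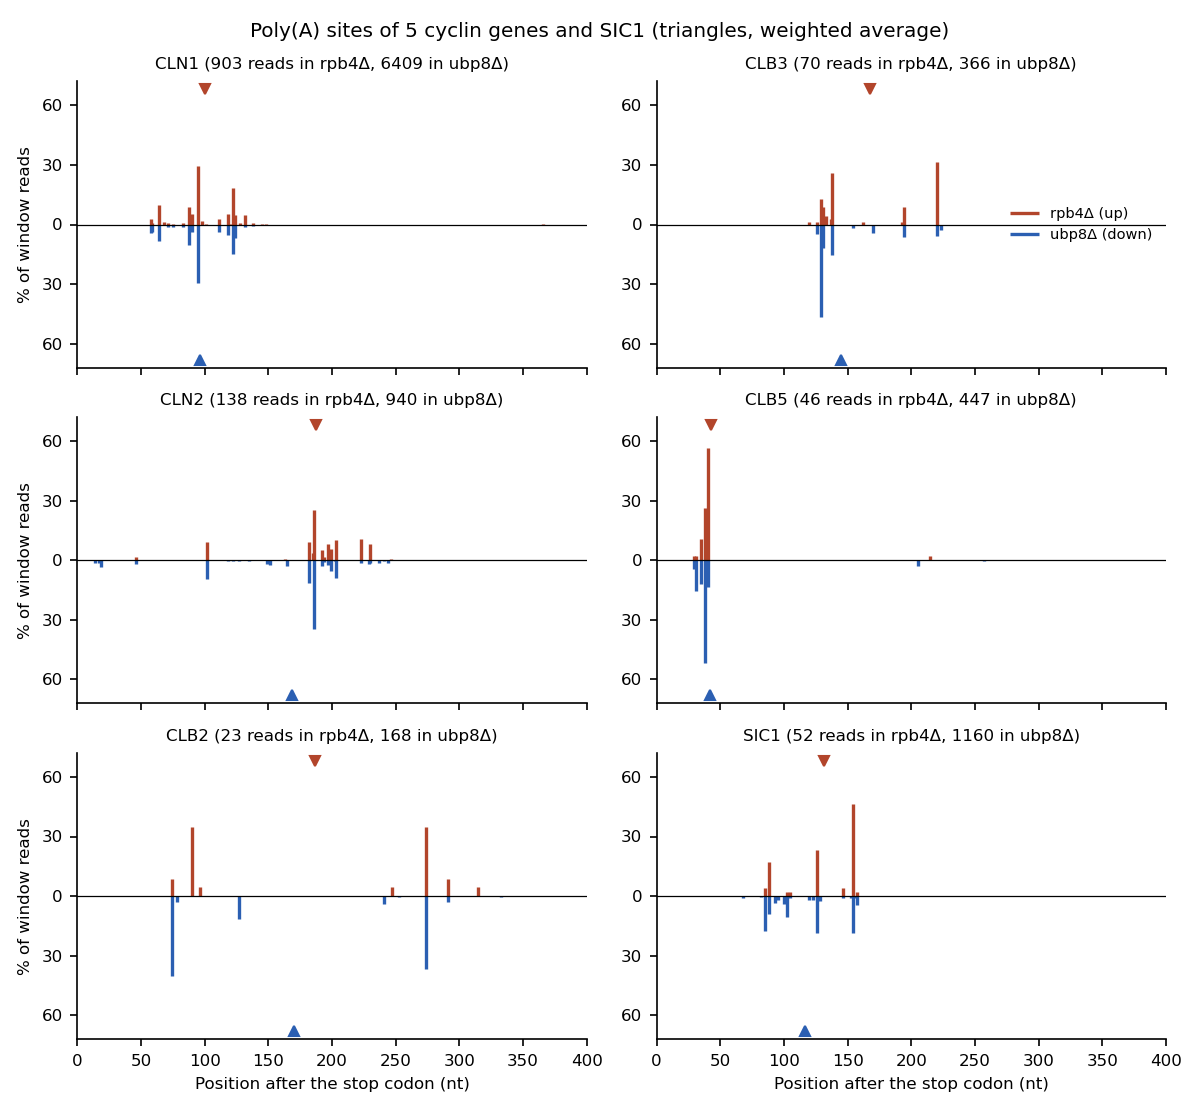
Share of window reads at each poly(A) site against the distance from the stop codon in nt, for the 6 genes with at least 20 reads in both strains (rpb4Δ upward in red, ubp8Δ downward in blue). Triangles mark the weighted averages, which for CLB3 were 167 nt in rpb4Δ and 144 nt in ubp8Δ. The sites at 95 nt of CLN1 and 186 nt of CLN2 lead in both strains, and those of CLB3 at 220 and 129 nt each lead in one.

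The highest sites of 3 of the 6 genes (CLB3, CLB2 and SIC1) lay more than 10 nt apart in the strains, against 26.1% of ORFs. For SIC1 this rests on the difference of 1 read in ubp8Δ.

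**Figure D3:**
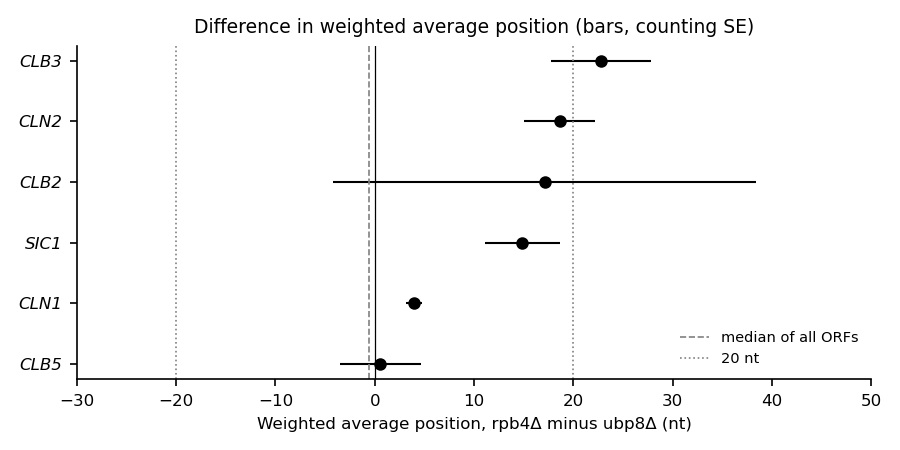
Weighted average position in rpb4Δ minus that in ubp8Δ in nt, with bars for the counting SE, for the 6 genes with at least 20 window reads in both strains. All 6 points lie at or right of 0, from 0.56 nt for CLB5 to 22.8 nt for CLB3, and the dashed line marks the median of all ORFs at -0.58 nt.

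The other 3 genes with window reads had too few in rpb4Δ for this comparison, and each had a weighted average further upstream in rpb4Δ. The differences were -60.7 ± 59.4 nt for CLN3, -63.1 ± 10.2 nt for CLB1 and -29.99 ± 4.63 nt for CLB4 (counting SE). Of all 9 genes with window reads, 6 thus had a weighted average further downstream in rpb4Δ and 3 further upstream. Within the CLB1 window, sites from 139 to 170 nt held 62.5% of 16 reads in rpb4Δ (38.6 to 81.5%). In ubp8Δ they held 61.2% of 338 reads (56.0 to 66.3%). More CLB1 reads in ubp8Δ lay inside the ORF (485 reads) than in this window. The CLB1 site at 83 nt had 6 reads in rpb4Δ, and 0 in ubp8Δ, which allows up to 0.888%. In ubp8Δ, 65 window reads of CLB1 (19.2%) ended at 309 nt, opposite the coding region of the convergent CLB6 gene, which begins 308 nt away. In rpb4Δ no CLB1 read ended there, and 16 reads allow up to 18.8%. That limit lies just below the ubp8Δ share and within its interval (15.4 to 23.8%), so the shares at this site could not be told apart. The 3 CLN3 window reads in rpb4Δ were at 177 nt (2 reads) and 395 nt (1 read). The 111 window reads in ubp8Δ were at 212, 318 and 322 nt, so the strains shared no CLN3 site in the window. CLB4 had its 5 window reads in rpb4Δ between 168 and 177 nt, while 18 of 29 window reads in ubp8Δ were at 220 nt.

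The share of a gene's signal inside the ORF was lower in rpb4Δ than in ubp8Δ for most of these genes, as it was for most ORFs. It could be compared in 7 genes with at least 20 reads in ORF and window together in both strains. Of these 7, 6 were lower in rpb4Δ by any amount, where 75.2% of 4603 ORFs were. A share lower by 10 percentage points or more was found for 4 of the 7 (CLN2, CLB5, CLB3 and CLB2), against 36.1% of ORFs, and a share higher by as much for 0, against 3.45% of ORFs. The median share over the 7 genes was 2.60% in rpb4Δ and 20.6% in ubp8Δ, and over all ORFs tested 3.39% in rpb4Δ and 11.6% in ubp8Δ.

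Among the G1 cyclin genes, CLN1 had 2.60% of its signal inside the ORF in rpb4Δ (1.75 to 3.82%) and 7.47% in ubp8Δ (6.88 to 8.12%). CLN2 had 0.728% in rpb4Δ (1 read) and 13.7% in ubp8Δ (150 reads, 11.8 to 15.9%). CLN3 differed from both in that most of its signal lay inside the ORF, with 66.8% in rpb4Δ (6 reads inside the ORF and 3 in the window) and 86.0% in ubp8Δ (683 reads inside the ORF and 111 in the window, 83.4 to 88.3%). The 683 reads in ubp8Δ were spread over 49 positions of the CLN3 coding region.

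Among the B-type cyclin genes, CLB3 had 36.4% inside the ORF in rpb4Δ (28.0 to 45.7%) and 54.4% in ubp8Δ (50.9 to 57.8%). CLB4 had 81.5% in rpb4Δ (63.3 to 91.8%) and 77.2% in ubp8Δ (69.1 to 83.6%), the only one of the 7 that was higher in rpb4Δ, and its intervals overlap. CLB5 had 9.81% in rpb4Δ (4.26 to 21.0%) and 20.6% in ubp8Δ (17.5 to 24.1%). Both mitotic genes had large shares in ubp8Δ. CLB2 had 0 of 23 reads inside the ORF in rpb4Δ and 27.3% in ubp8Δ (63 reads, 21.9 to 33.4%), and CLB1, with 19 reads in all in rpb4Δ, had 16.0% there (5.52 to 37.6%) and 58.9% in ubp8Δ (485 reads, 55.5 to 62.2%). SIC1 was low in both strains, with 1.91% in rpb4Δ (1 read) and 3.01% in ubp8Δ (36 reads).

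**Figure D4:**
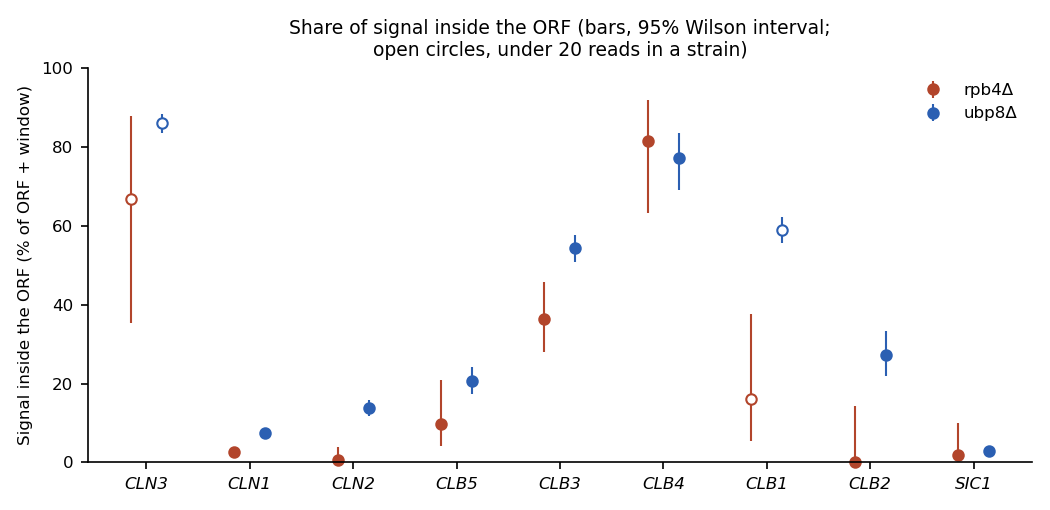
Percent of the signal of ORF and window that lay inside the ORF, for the 9 genes with window reads, with rpb4Δ in red to the left of ubp8Δ in blue and bars for the 95% Wilson interval. CLB3 was at 36.4% in rpb4Δ and 54.4% in ubp8Δ, and CLN3 and CLB4 were above 60% in both. Open circles mark CLN3 and CLB1, which had under 20 reads in rpb4Δ.

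The 10 genes had 78 poly(A) sites in rpb4Δ and 121 in ubp8Δ. After random thinning of the ubp8Δ reads to the depth of rpb4Δ, 98 remained in ubp8Δ (the sum of each gene's median over 100 draws). CLN1 had 23 sites in rpb4Δ and 27 in ubp8Δ, of which 19 were shared, and these held 98.9% of its reads in rpb4Δ and 97.8% in ubp8Δ. SIC1 had 8 sites in rpb4Δ, all of them shared, and 23 in ubp8Δ, or 17 after thinning. CLB1 had 4 sites in rpb4Δ and 14 in ubp8Δ, or 11 after thinning. CLB3 ran the other way, with 11 sites in rpb4Δ and 10 in ubp8Δ, or 9 after thinning. Thinning matched the depth of the libraries and not the reads of each gene. SIC1 and CLB1, with less signal in rpb4Δ, still had more reads in thinned ubp8Δ, so their sites were not compared at equal reads. Over the ORFs with enough reads, the mean was 15 sites in rpb4Δ and 22.3 in ubp8Δ, or 16.6 after thinning.

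Yeast poly(A) sites commonly lie downstream of UA-rich and A-rich elements. The 80 bases before the highest site were searched on the RNA strand for the UA-rich motif TATATA, for its relatives TACATA and also TATGTA, and for the A-rich motif AATAAA. The reverse complement of TATATA is itself and that of TACATA is TATGTA, and matches may overlap each other. TATATA was found before the highest site of 3 of the 6 genes (CLN1, CLN2 and SIC1) in both strains, against 40.9% of ORFs in rpb4Δ and 39.4% in ubp8Δ. In CLN1 it began 72 nt before the site at 95 nt and overlapped a TACATA, and in CLN2 it began 39 nt before the site at 186 nt. In SIC1 it began 49 nt before the site at 154 nt and 21 nt before the site at 126 nt, where it can be seen in part in the sequence above. SIC1 also had a TACATA, 61 nt before the site at 154 nt and 33 nt before the site at 126 nt. CLB3 had a TATGTA 37 nt and an AATAAA 45 nt before its site at 129 nt and none of the 4 motifs before the site at 220 nt. TACATA was present in 20.2% of ORFs in rpb4Δ and 19.5% in ubp8Δ. TATGTA was present in 20.3% of ORFs in rpb4Δ and 19.5% in ubp8Δ, and AATAAA in 16.1% in rpb4Δ and 15.9% in ubp8Δ. None of the 4 was found before the highest sites of CLB2 and CLB5, and for CLB5 the searched bases reach into the coding region.

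The cyclin genes were set beside 69 other genes of the cell cycle and of other cyclins, in 5 lists that hold partners and regulators of Cdc28, transcription factors, ubiquitination factors, mitotic exit genes and cyclins of other kinases. Of 50 with enough reads, 28 had a weighted average downstream in rpb4Δ, 9 by 20 nt or more, and 6 were upstream by as much. Their median difference was 1.68 nt, against 16.0 nt for the 5 cyclin genes and SIC1 compared above. The 16.0 nt depended on the measure. It was 5.5 nt by the weighted median and 16.8 nt with sites of at least 1% of the signal. With no minimum of reads it was 3.96 nt over 9 genes. Highest sites lay more than 10 nt apart in 21 of these 50, against 26.1% of ORFs. An ORF share 10 percentage points or more lower in rpb4Δ was found for 27 of 56, against 36.1% of ORFs. Of 52 with enough signal, 8 were called lower in rpb4Δ and 10 higher, with a median ratio of 1.02. Among those lower was FKH2, a transcription factor gene for the CLB2 cluster, at 58.9 RPM in rpb4Δ and 176 RPM in ubp8Δ. Among those higher was CKS1, a subunit of the Cdc28 kinase complex, at 21.4 RPM in rpb4Δ and 5.15 RPM in ubp8Δ.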

How the data were processed

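Poly(A) sites were measured by 3′ READS in rpb4Δ and ubp8Δ, 2 biological replicates each. The authors trimmed the Ts that begin each read, aligned the following 17 bases with Bowtie to sacCer3 without mismatches and with unique matches, kept reads with untemplated As and pooled the replicates. The window, highest-position and ORF values were deposited in RPM, the position values as a share of each gene's highest position, and the ORF share was deposited as a percent, recomputed here from RPM. Whole reads were recovered from the RPM of 1 read: all 4611 tested values in rpb4Δ and 4917 in ubp8Δ were whole multiples within rounding. No count model was run, since each strain has 1 profile.

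The 10 members and the other gene lists were chosen with earlier results of these data known. Named genes are all 10 members, the deleted genes, and at most 3 genes per direction from the other lists. Calls needed 20 reads in both strains or a mean of 8 RPM. Intervals are Wilson for shares, exact Poisson for levels and Clopper-Pearson for ratios (95%), and the SE of a weighted average is that of the reads. Alternatives were other windows, site definitions, minimums, scalings and thinning of ubp8Δ reads to 15.2% (100 draws, median). Depth in the windows of ORFs was 1977159 reads in rpb4Δ and 13034209 in ubp8Δ. Features other than ORFs were left out. Python 3.11.15, numpy 2.4.6, pandas 2.3.3, scipy 1.17.1 and matplotlib 3.10.9 were used, and the functions were tested on simulated data. Of 5795 ORFs found in the R64 annotation, 5787 had the same coordinates.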

Additional observations from a re-analysis of the deposited data

How the results depend on the processing

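No paired analysis was possible because the replicates of each strain are pooled, and for the same reason no replicate could be left out. Of the 6 genes, 1 was called 20 nt or more downstream in rpb4Δ, and this count was 2 by the highest site (CLB3 and SIC1), 2 by the weighted median (CLB2 and SIC1, with CLB3 at 9.0 nt no longer called), 4 with 10 nt in place of 20 nt, 0 of 3 genes without positions followed by a genomic A, and 0 of 2 when 100 reads were required in each strain. The number downstream by any distance was 6, against 4 of 6 by the highest site, 4 of 6 by the weighted median, 5 of 6 with sites of at least 5% of the signal, 2 of 3 without positions before an A and 2 of 2 under the minimum of 100 reads. With no minimum of reads, 3 of 9 genes (CLN3, CLB1 and CLB4) were 20 nt or more upstream. The median difference of 16.0 nt was 9.0 nt by the highest site, 5.5 nt by the weighted median, 2.76 nt without positions before an A, 11.3 nt with at least 100 reads and 3.96 nt with no minimum. For the highest site, CLB2 was taken at 90 nt in rpb4Δ, which tied with 274 nt. Taken at 274 nt, CLB2 would be called as well, and the median by the highest site would be larger. Leaving out positions before an A removes most reads of these genes, and the differences were then -2.74 nt for CLN1, -2.77 nt for CLB5 and 7.15 nt for CLB3. The 4 genes with an ORF share 10 points lower in rpb4Δ became 2 of 3 with at least 100 reads. The 78 sites in rpb4Δ and 121 in ubp8Δ became 39 and 40 where a site held at least 5% of the signal, and 29 and 39 where sites within 10 nt were merged. The counts called lower (2) and higher (0) in window signal stayed within 1.5 times under all scalings and minimums tried, as did the count of highest sites apart (3). No called value changed sign. Depth limits CLN3, CLB1, CLB4 and CLB6 most, with 3, 16, 5 and 0 window reads in rpb4Δ.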
